A study of Homo sapiens with 28 samples.

Results

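Transcripts of the histone chaperone FACT, of the SPT elongation factors and of the chaperones that deposit histones behind the replication fork were followed in HEK293 cells, a human embryonic kidney line, after knockdown of 9 factors of RNA processing and chromatin. The 10 genes were SUPT16H and SSRP1 (the FACT subunits), SUPT6H, SUPT5H and SUPT4H1 (SPT6 and the SPT4-SPT5 dimer DSIF), ASF1A and ASF1B (the ASF1 paralogs), CHAF1A and CHAF1B (the large and middle subunits of chromatin assembly factor CAF-1) and NAP1L1 (a NAP1 chaperone). They were chosen by function, with no cut on a measured value, but with earlier results of these data known. All 10 were found among the 18417 genes with a probeset of exactly 1 gene symbol.

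FACT takes an H2A-H2B dimer off the nucleosome in front of RNA polymerase II and puts it back after the polymerase has passed. SPT6 holds H3-H4 and travels with the elongating polymerase, while DSIF binds the polymerase early, takes part in pausing near the promoter and, once phosphorylated by P-TEFb, favours elongation. ASF1 hands new H3-H4 to CAF-1 at replication forks and to the HIRA complex elsewhere, and NAP1 proteins carry H2A-H2B.

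All cells, controls included, carried a pLKO lentiviral vector in which the U6 promoter drives a short hairpin RNA (shRNA), and were kept in 2 μg/ml puromycin for 6 days. The control hairpin was directed against lacZ, a bacterial gene that human cells lack. In the first array series of 14 arrays, 3 hairpins were used against each of the RNA-processing factors CLP1, DDX5, DDX17 and HNRNPL, beside 1 array of CPSF6 and 1 of lacZ. In the second, also of 14, there were 3 for each of SUPT16H, PRKDC, PARP1 and PABPC1, beside lacZ on 2 arrays. The study asked which factors act on the length of 3′ untranslated regions, and selected the hairpins for how well they depleted their target. The arrays of a knockdown therefore carried different hairpin sequences, 1 each, and the labels do not say whether they came from separate cultures on separate days. The p-values measure the spread between arrays within a group, which may be partly technical. That spread was pooled over all groups of both series, so an array of 1 series also bears on tests in the other.

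Levels are given as log2 of the array intensity, so that a difference of 1 is a 2-fold change. The series were normalized apart, with array medians of 61.5 to 74.0 in the first and 54.5 to 58.3 in the second on the linear scale, so a knockdown was set only against arrays of its own series. The lacZ array of the first series and lacZ replicate 2 of the second differed by a shift of -0.32 with an SD of only 0.07 over probesets, against 0.28 between lacZ replicates 2 and 3, and were counted as 1 sample. First-series comparisons with lacZ thus rest on 1 control array, and the control arrays are shared by all knockdowns of a series. DDX5 hairpin 3 stood apart, with an SD of 0.55 from the mean of its series over all genes against 0.14 to 0.34 for the other first-series arrays. It also had the lowest value of its series for 5 of the 10 genes. In the second series lacZ replicate 2 (0.39) and PRKDC hairpin 3 (0.36) lay furthest from the mean, with 0.18 to 0.30 for the rest. Of 10 HEK293 markers, 7 (among them NEFL, VIM and KRT8) lay above the array median on all 28 arrays. Of 4 blood genes, PTPRC, CD3E and HBB lay below it on all 28, and SPI1 lay above it on 22. Of 5 fibroblast genes 3 lay below on all arrays and 1, COL1A1, above on all. Of 3 keratinocyte genes 2 lay below on all arrays, and KRT14 lay above on 14. In RNA from whole cultures, fewer cells of a kind and less RNA per cell cannot be told apart.

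All 10 genes lay above the array median on 28 of 28 arrays. The plot of levels by array shows each gene within its own panel.

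**Figure D1:**
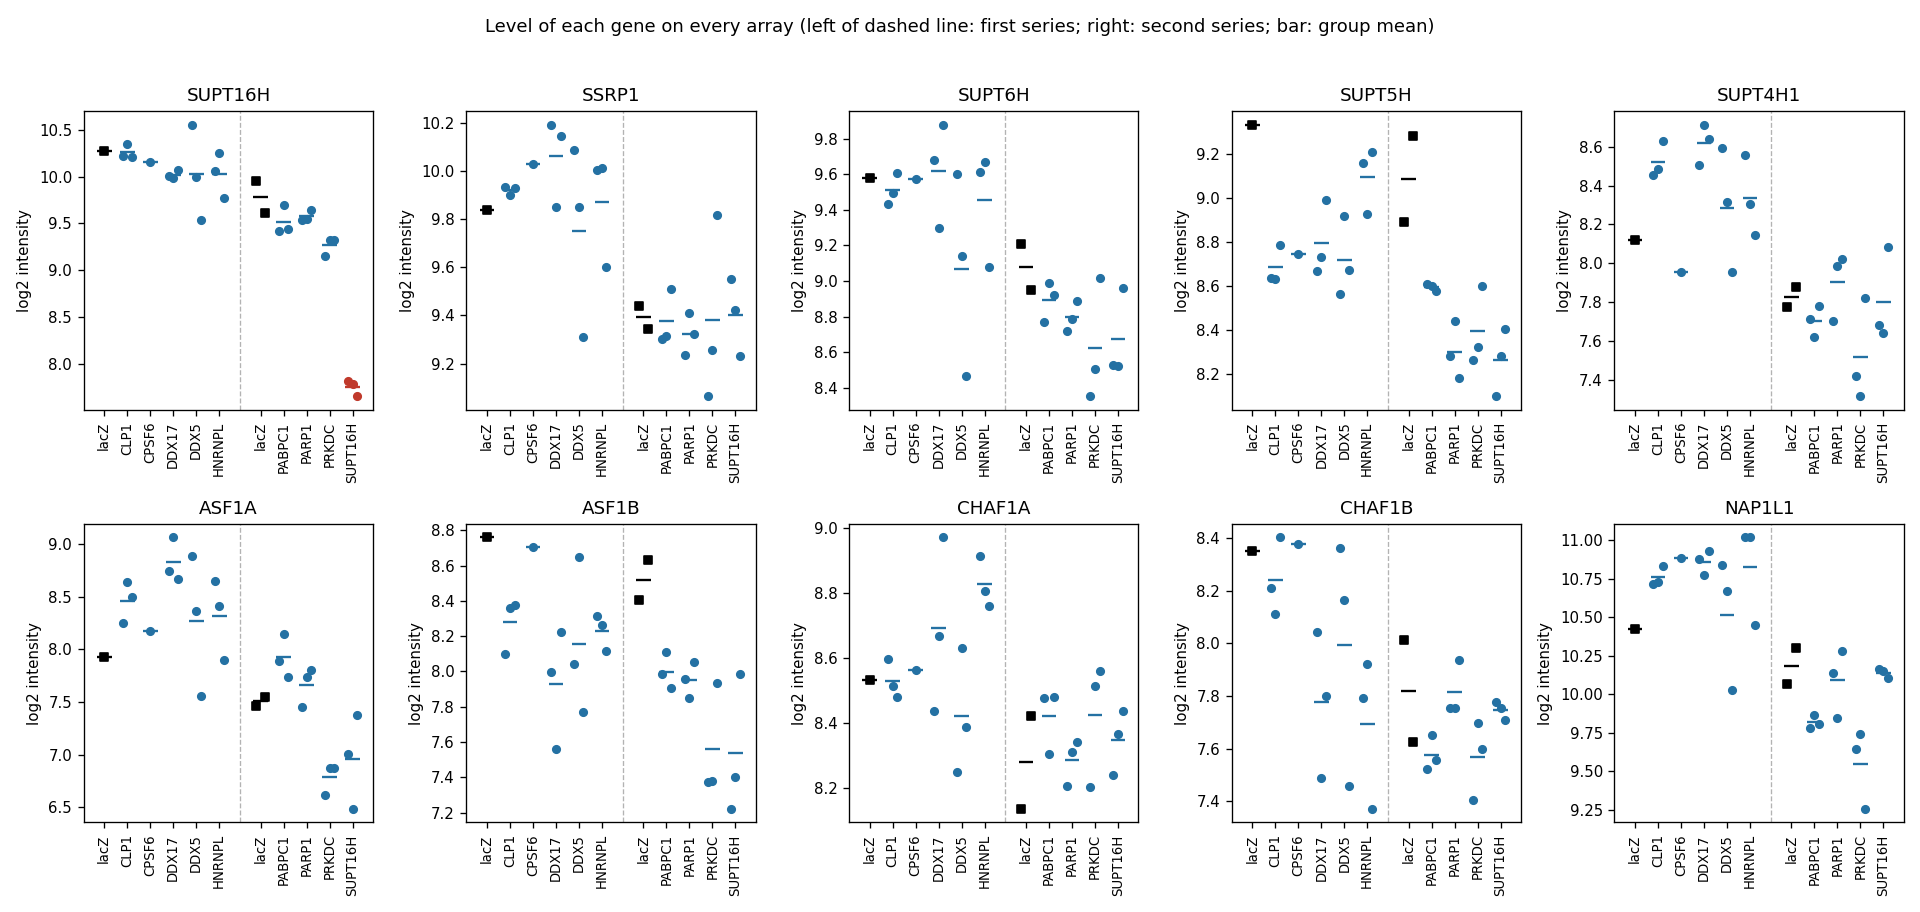
Level of each of the 10 genes on every array, as log2 intensity on an axis of its own, with lacZ as black squares, knockdown arrays as circles, the SUPT16H hairpins in red in the SUPT16H panel and a bar at each group mean. Arrays left of the dashed line belong to the first series and those right of it to the second. SUPT16H falls to 7.65 to 7.81 with its own hairpins, and SUPT5H and ASF1B lie below the lacZ arrays of their series in every knockdown array.

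SUPT16H, which encodes the large FACT subunit that contacts H2A-H2B, was itself a target. Its level was 7.81, 7.78 and 7.65 with the SUPT16H hairpins, against 9.95 and 9.61 on the lacZ arrays of that series. The groups did not overlap, and the level fell by 2.03 ± 0.21 (SE, 3 arrays against 2, limma adjusted p = 9.95e-07). The remaining signal was 25.5%, 25.0% and 22.8% of the lacZ mean with the 3 hairpins. The fall held against PABPC1 (-1.77), PARP1 (-1.83) and PRKDC (-1.52, adjusted p = 0.000116). In all 3 hairpins the target gene was thus in the direction that its label gives. These hairpins had been selected for depletion of their target.

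Outside its own hairpins, no knockdown gave a called difference of SUPT16H from lacZ. Its values ran from 9.53 to 10.55 over the first-series knockdown arrays with 3 hairpins, with lacZ at 10.28, and none of the 4 differences, from -0.26 to -0.02, passed the test. In the second series its level was 9.42, 9.69 and 9.44 in PABPC1, 9.53, 9.54 and 9.65 in PARP1, and 9.15, 9.32 and 9.32 in PRKDC. The PRKDC arrays were the lowest of these, all below both lacZ arrays, with a difference of -0.52 ± 0.21 from lacZ that missed the threshold (adjusted p = 0.0514). It passed with the second series fitted alone (adjusted p = 0.00972) and, in the common fit, without the first-series array DDX5 hairpin 3 (adjusted p = 0.0133). In PRKDC against lacZ, 4017 and 3923 of all 18417 genes were called lower in these settings. The common fit with all arrays called 2962 lower (16.1%).

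SSRP1 encodes the other FACT subunit, which carries an HMG box and binds DNA. With the SUPT16H hairpins its level was 9.55, 9.42 and 9.23, and on the lacZ arrays 9.44 and 9.35. The groups overlapped, and the difference was 0.01 ± 0.21 (95% interval -0.43 to 0.45, adjusted p = 0.981). Against the other 3 knockdowns of the series, a reference that uses no lacZ array, it was 0.04 ± 0.16 (95% interval -0.28 to 0.36). A loss larger than 0.43 lay outside the first interval. Over the 8 knockdowns its differences from lacZ ran from -0.09 to 0.23, and none passed the test. The second SSRP1 probeset, a dimmer one that was not used, read 6.56, 6.58 and 6.36 with the SUPT16H hairpins, against 6.29 and 6.85 on the lacZ arrays, which also overlapped.

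**Figure D2:**
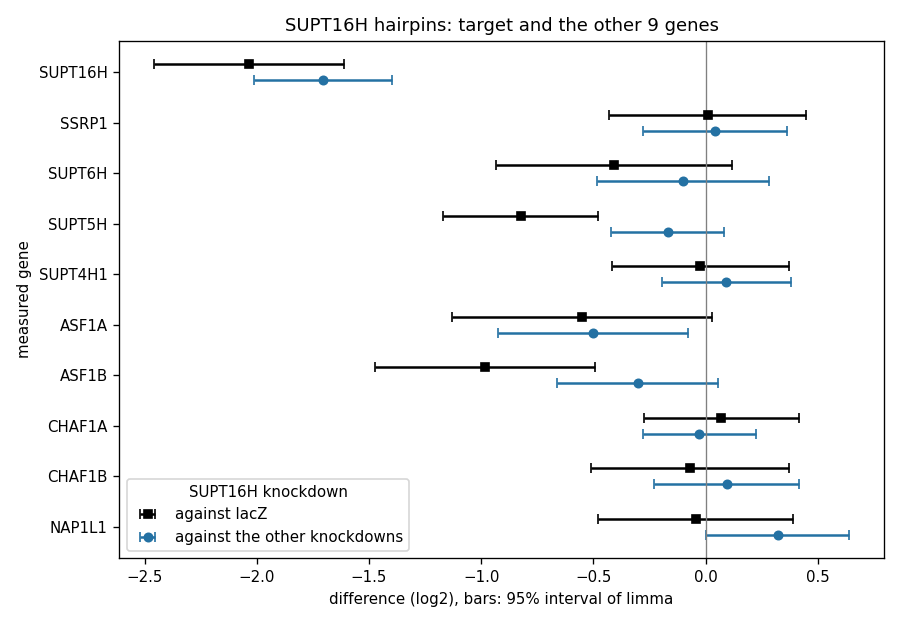
Difference in log2 level between the SUPT16H hairpins and lacZ (black squares, 3 arrays against 2) and between the SUPT16H hairpins and the other 3 knockdowns of the second series (blue circles, 3 arrays against 9), with bars for the 95% interval of the fit. SUPT16H lies near -2.03 and -1.70, SSRP1 at 0.01 and 0.04, and the lacZ intervals of SUPT5H and ASF1B end below 0 while those against the other knockdowns do not.

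Against lacZ, 2 of the other 9 genes were called lower with the SUPT16H hairpins, SUPT5H and ASF1B, and 0 were called higher, where 5.76% of all genes were called lower and 3.77% higher. The median difference of the 9 was -0.07, beside 0.07 over all genes. Against the other knockdowns of the series 0 of the 9 passed (2 at an unadjusted p under 0.05, ASF1A at -0.50 ± 0.21 and NAP1L1 at 0.32 ± 0.15). In that comparison only 0.0109% of all genes passed, namely SUPT16H itself and PABPC1, which was a target in the reference. Set against PABPC1, PARP1 and PRKDC one at a time, 0 of 27 values of these 9 genes passed (5 at an unadjusted p under 0.05), with 0.348%, 0.141% and 0.0109% of all genes called.

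SUPT5H, the large DSIF subunit that docks on the polymerase, was the gene most often called against lacZ. Its second-series levels were 8.89 and 9.28 on the lacZ arrays. They were 8.61, 8.60 and 8.58 in PABPC1, 8.28, 8.44 and 8.18 in PARP1, 8.26, 8.32 and 8.60 in PRKDC, and 8.10, 8.28 and 8.41 with the SUPT16H hairpins. All 12 knockdown arrays lay below both lacZ arrays, as did those of 12.4% of all genes. SUPT5H fell by 0.78 ± 0.17 in PARP1 (adjusted p = 0.00607), where it was the 1 of 10 genes called lower, against 2.98% of all genes lower and 2.46% higher. It fell by 0.69 ± 0.17 in PRKDC (adjusted p = 0.00563) and by 0.82 ± 0.17 with the SUPT16H hairpins (adjusted p = 0.00384). In PABPC1 the difference was -0.49 ± 0.17 (adjusted p = 0.0796), and 0 of the 10 genes passed there against 5.76% of all genes in either direction.

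The first series had the same sign without a call. SUPT5H was at 9.33 on its lacZ array and between 8.57 and 9.21 on the 12 knockdown arrays with 3 hairpins, all below it, as for 11.2% of all genes. The differences were -0.65 in CLP1, -0.54 in DDX17, -0.61 in DDX5 and -0.23 in HNRNPL (adjusted p from 0.203 to 0.735). In this series 0 of 10 genes passed in any knockdown, where 0.956% of all genes were called in CLP1, 2.77% in DDX17, 0.842% in DDX5 and 1.84% in HNRNPL. With the CPSF6 hairpin, which has 1 array and no test, SUPT5H was at 8.74.

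The SUPT5H calls depended on lacZ replicate 3, at 9.28 the higher of the second-series lacZ arrays. Without that array 0 of the 10 genes other than the target were called lower in any knockdown, and the SUPT5H differences became -0.59 in PARP1 (adjusted p = 0.148), -0.50 in PRKDC and -0.63 with the SUPT16H hairpins. Leaving out replicate 3 also left 1 control array and raised the standard error from 0.17 to 0.21. The loss of precision was alike without lacZ replicate 2 (standard error 0.21), where SUPT5H kept its calls. Its differences were then -0.98 in PARP1, -0.89 in PRKDC and -1.02 with the SUPT16H hairpins. Quantile normalization over all 28 arrays also ended the 3 SUPT5H calls (adjusted p = 0.0749, 0.189 and 0.0505). Between knockdowns, where no lacZ array enters, SUPT5H did not pass anywhere, with differences from -0.19 to 0.36 against the other knockdowns of a series.

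SUPT4H1, the small zinc-finger partner of SUPT5H in DSIF, did not share that pattern. Its levels in the second series were 7.77 and 7.88 on the lacZ arrays and 7.32 to 8.09 on the knockdown arrays, on both sides of lacZ. In the first series 11 of 12 knockdown arrays lay above the lacZ value of 8.12, with differences from 0.16 in DDX5 to 0.50 in DDX17. None of its 8 comparisons with lacZ passed (adjusted p from 0.196 to 0.943). Across 27 arrays counted once and centred within their series, SUPT5H and SUPT4H1 had a Pearson r of -0.01 (Spearman rho -0.06), which is a description of arrays that share control and normalization.

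SUPT6H encodes SPT6. Its second-series levels were 9.21 and 8.95 on the lacZ arrays, 8.77, 8.99 and 8.92 in PABPC1, 8.72, 8.79 and 8.89 in PARP1, 8.35, 8.51 and 9.02 in PRKDC, and 8.53, 8.52 and 8.96 with the SUPT16H hairpins. The knockdown arrays lay mostly below lacZ, 9 of 12 below both arrays, and the highest arrays of PABPC1, PRKDC and SUPT16H lay between the lacZ arrays. The differences, -0.45 ± 0.26 in PRKDC and -0.41 ± 0.26 with the SUPT16H hairpins, did not pass (adjusted p = 0.151 and 0.272). In DDX5 the values 9.60, 9.14 and 8.46 spread widely around a difference of -0.51 ± 0.32 (adjusted p = 0.585), the lowest being hairpin 3, the array that stood apart.

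**Figure D3:**
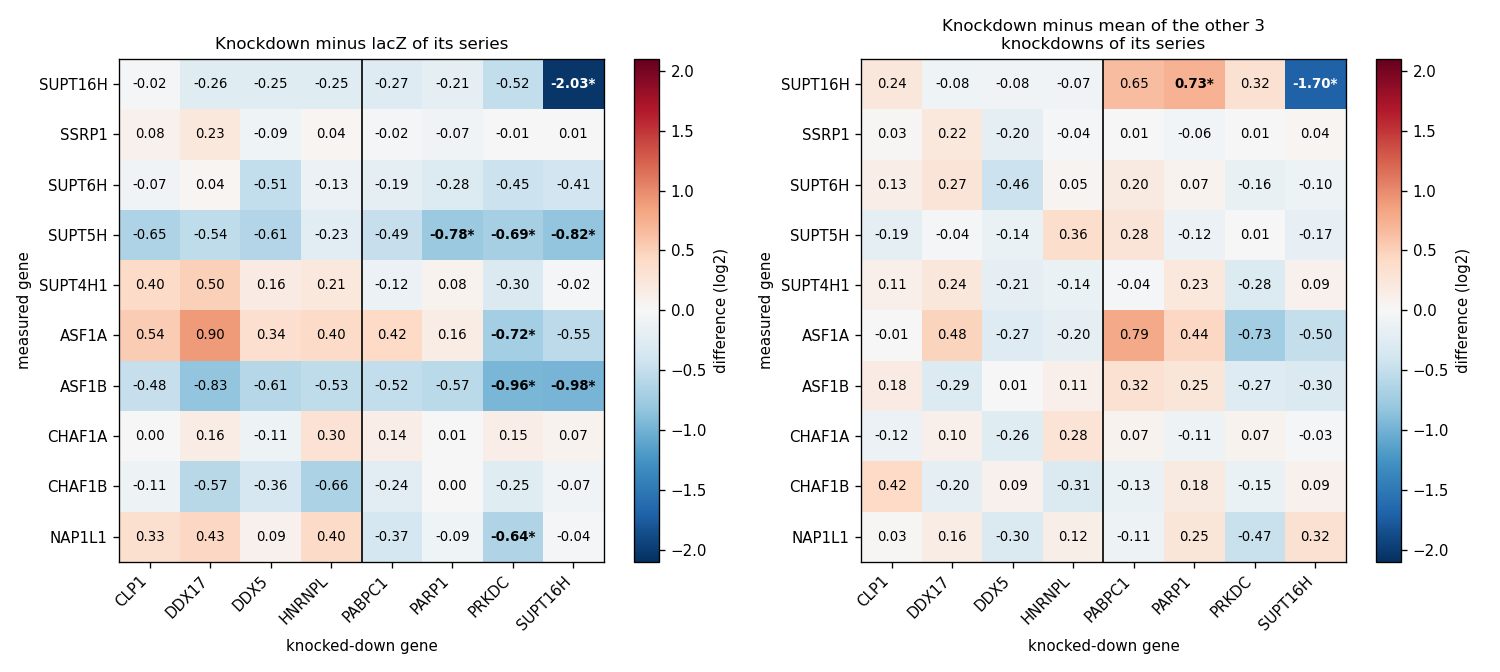
Difference in log2 level of each gene (rows) in each knockdown (columns; first series left of the line, second right), on the left against lacZ of its series and on the right against the mean of the other 3 knockdowns of its series. A star and bold type mark an adjusted p under 0.05. On the left SUPT16H, SUPT5H, ASF1B and CHAF1B are at or below 0 in all 8 columns, and on the right only values of the SUPT16H gene carry a star.

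Of the ASF1 paralogs, ASF1B was called lower in 2 knockdowns and ASF1A in 1, all against lacZ, and no test compared the paralogs with each other. ASF1B, the paralog most closely tied to proliferating cells, was at 8.41 and 8.63 on the lacZ arrays of the second series. Its levels were 7.99, 8.11 and 7.90 in PABPC1, 7.96, 7.85 and 8.05 in PARP1, 7.37, 7.38 and 7.93 in PRKDC, and 7.22, 7.40 and 7.99 with the SUPT16H hairpins. All 12 knockdown arrays lay below both lacZ arrays. ASF1B fell by 0.96 ± 0.24 in PRKDC (adjusted p = 0.00655) and by 0.98 ± 0.24 with the SUPT16H hairpins (adjusted p = 0.013). In PABPC1 it differed by -0.52 and in PARP1 by -0.57, neither called (adjusted p = 0.177 each). With 1 lacZ array left, neither call held (adjusted p from 0.0581 to 0.111), while the differences stayed large, at -1.07 without lacZ replicate 2 and -0.845 without replicate 3 in PRKDC, and at -1.10 and -0.87 with the SUPT16H hairpins. The call with the SUPT16H hairpins was also lost without SUPT16H hairpin 1 (-0.83) or 2 (-0.92).

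In the first series ASF1B was at 8.76 on the lacZ array and from 7.56 to 8.65 on the 12 knockdown arrays, again all below it. The lowest mean was that of DDX17, at 8.00, 7.56 and 8.22, with a difference of -0.83 ± 0.30 (adjusted p = 0.154). Its CPSF6 value was 8.71. SUPT5H and ASF1B were the 2 of 10 genes that lay below the lacZ arrays on 24 of 24 arrays of both series, where 4.69% of all genes did so, and 0 of 10 lay above on all 24 against 2.5% of all genes. One lacZ array serves in both series, so that the series do not check each other.

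ASF1A spread more widely than its paralog. Its levels in the second series were 7.46 and 7.55 on the lacZ arrays and 7.89, 8.15 and 7.74 in PABPC1, all above lacZ. They were 7.45, 7.74 and 7.81 in PARP1, on both sides of lacZ. In PRKDC they were 6.62, 6.87 and 6.88 and with the SUPT16H hairpins 7.01, 6.49 and 7.38, all below lacZ. ASF1A fell by 0.72 ± 0.28 in PRKDC against lacZ (adjusted p = 0.0487), a call that was lost under 8 of 13 alternatives, among them leaving out any 1 PRKDC hairpin. With the SUPT16H hairpins it differed by -0.55 ± 0.28 (adjusted p = 0.19).

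Against the other 3 knockdowns, ASF1A was at 0.79 ± 0.21 in PABPC1 (adjusted p = 0.0991) and at -0.73 ± 0.21 in PRKDC (adjusted p = 0.116), where 0.0869% of all genes passed in each. The SUPT16H hairpins differed from PABPC1 by -0.97 ± 0.25 (adjusted p = 0.0855). These values missed the threshold with all arrays in the fit. All 3 passed with the second series fitted alone (adjusted p = 0.0385, 0.00996 and 0.025), with quantile normalization, and without DDX5 hairpin 1 or hairpin 3. Over all genes, the calls in PABPC1 against the other knockdowns went from 16 to 75, 169, 109 and 198 in these settings, in that order. With 1 array left out, calls over all genes ran from 2 to 2591 in PRKDC against the other knockdowns. They ran from 9 to 366 in the SUPT16H hairpins against PABPC1. With the SUPT16H hairpins kept out of the reference, a comparison added after the data were seen, PRKDC differed from PABPC1 and PARP1 by -1.01 ± 0.22. That difference passed (adjusted p = 0.0331). PABPC1 then differed from PARP1 and PRKDC by 0.70 ± 0.22, which did not pass (adjusted p = 0.326).

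In the first series the ASF1A level was 7.92 on the lacZ array, 8.25, 8.64 and 8.49 in CLP1, 8.74, 9.06 and 8.67 in DDX17, 8.88, 8.36 and 7.56 in DDX5, and 8.65, 8.41 and 7.90 in HNRNPL. It lay above lacZ on 10 of 12 knockdown arrays, while ASF1B lay below on all 12. The difference was highest in DDX17 at 0.90 ± 0.36 (adjusted p = 0.2). Neither paralog passed in that series.

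**Figure D4:**
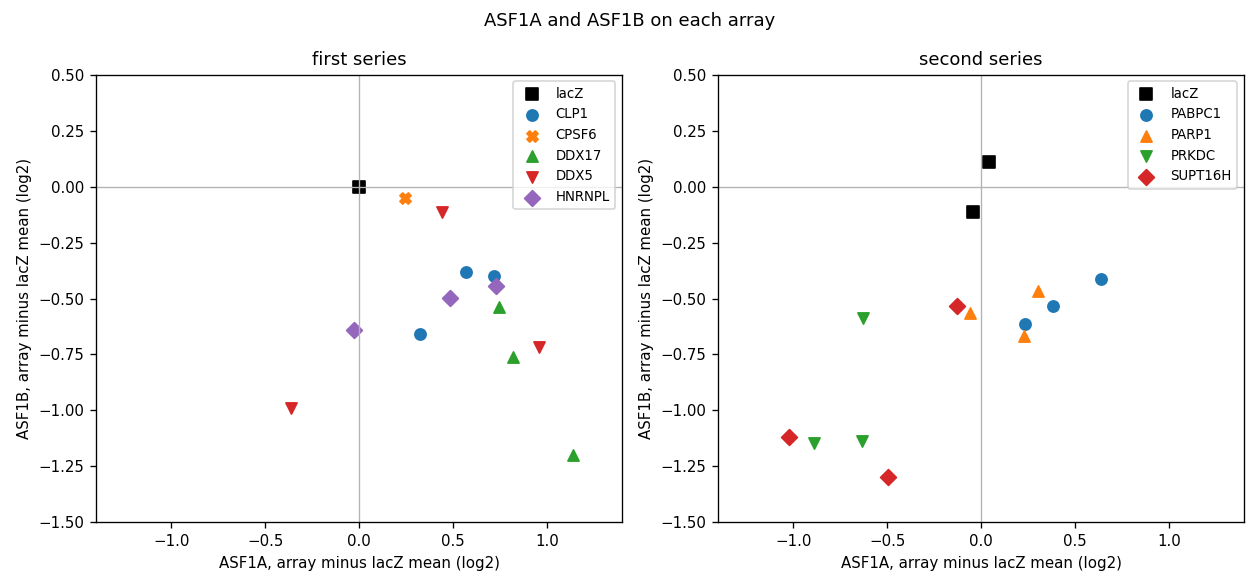
Level of ASF1A (horizontal) and ASF1B (vertical) on each array minus the lacZ mean of its series, in log2 units, with a symbol per knockdown and lacZ as black squares (the 1 first-series lacZ array is at 0 by construction). All knockdown arrays lie below 0 on the vertical axis, and on the horizontal axis the PRKDC and SUPT16H arrays lie left of 0 while those of PABPC1 lie right of it.

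The CAF-1 subunits showed no called difference in any knockdown. CHAF1A, the large subunit that binds PCNA, was at 8.13 and 8.42 on the second-series lacZ arrays and at 8.20 to 8.56 on the knockdown arrays. Its 8 differences from lacZ, from -0.11 in DDX5 to 0.30 in HNRNPL, all had an adjusted p of 0.483 or more. With the SUPT16H hairpins (8.24, 8.37 and 8.44) the difference was 0.07, with a 95% interval of -0.28 to 0.41.

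CHAF1B, the WD-repeat subunit, was at 8.01 and 7.62 on the second-series lacZ arrays and at 7.41 to 7.94 on the knockdown arrays. Its differences from lacZ were at or below 0 in all 8 knockdowns. Those furthest from 0 were in the first series, where the lacZ array was at 8.35. HNRNPL, at 7.79, 7.92 and 7.37, differed by -0.66 ± 0.27 (adjusted p = 0.271), and DDX17, at 8.04, 7.49 and 7.80, by -0.57 ± 0.27 (adjusted p = 0.317). Neither passed, and across 27 arrays CHAF1A and CHAF1B had a Pearson r of -0.38 (Spearman rho -0.45; r = -0.27 without the 2 arrays furthest from the median).

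NAP1L1 had 10.07 and 10.30 on the second-series lacZ arrays. It was at 9.64, 9.74 and 9.26 in PRKDC, below lacZ on all 3 arrays, and fell by 0.64 ± 0.21 (adjusted p = 0.0255). In that knockdown 4 of the 10 genes were called lower (SUPT5H, ASF1A, ASF1B and NAP1L1) and 0 higher, where 16.1% of all genes were called lower and 19.6% higher. The median difference of the 10 was -0.49, beside 0.10 over all genes. With the SUPT16H hairpins NAP1L1 was at 10.16, 10.15 and 10.10, within the range of lacZ (difference -0.04, 95% interval -0.48 to 0.39). The PRKDC call was lost under quantile normalization, without PRKDC hairpin 3 and without lacZ replicate 2 or 3. In the first series NAP1L1 lay above the lacZ value of 10.43 on 11 of 12 knockdown arrays, with differences from 0.09 to 0.43 that did not pass.

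Over the 8 knockdowns, 7 of 79 values were called lower against lacZ and 0 higher (19 had an unadjusted p under 0.05). The SUPT16H gene with its own hairpins was left out. Of the 7, 4 were in PRKDC, where 16.1% of all genes were called lower and 19.6% higher. Another 2 were with the SUPT16H hairpins (5.76% of all genes lower, 3.77% higher) and 1 in PARP1 (2.98% lower, 2.46% higher). Against the other knockdowns 0 of 79 were called lower and 1 higher (16 at an unadjusted p under 0.05), where 0.722% of all genes passed in CLP1, 0.874% in DDX17, 0.038% in DDX5 and 0.0977% in HNRNPL. The 1 was SUPT16H in PARP1, at 0.73 ± 0.15 (adjusted p = 0.031), where 0.5% of all genes were called higher and 0.0543% lower. Its reference holds the SUPT16H hairpins, in which the gene was the target. With these left out the difference of PARP1 from PABPC1 and PRKDC was 0.18 ± 0.16 (adjusted p = 0.475). SUPT16H in PABPC1 and in PRKDC, also among the 16 above, was likewise set against a reference with the SUPT16H hairpins.

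SUPT5H and ASF1B were also the genes called with knockdowns pooled. In PABPC1, PARP1 and PRKDC together, without the SUPT16H hairpins, SUPT5H fell by 0.65 ± 0.14 (adjusted p = 0.00402) and ASF1B fell by 0.68 ± 0.20 (adjusted p = 0.0261), 2 of 10 genes where 9.38% of all genes were called lower and 7.3% higher. In the 4 first-series knockdowns together 0 of 10 passed where 1.78% of all genes did, with SUPT5H at -0.51 ± 0.19 (adjusted p = 0.227) and ASF1B at -0.61 ± 0.27 (adjusted p = 0.349). Without lacZ replicate 3 neither second-series call held (adjusted p = 0.14 and 0.207). ASF1B also lost its call without lacZ replicate 2 (adjusted p = 0.197), where 1 control array was left and the difference was -0.79.

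Genes that work beside the 10 were taken from lists of known function. Of 20 measured elongation partners (the PAF1 complex, CHD remodellers and other factors that travel with the polymerase), 3 were called lower with the SUPT16H hairpins and 0 higher, with a list median of -0.39 beside 0.07 over all genes, of which 5.76% were called lower. They were CHD2, a chromatin remodeller (-1.06 ± 0.20, adjusted p = 0.00198), CTR9, a PAF1 complex subunit (-1.04 ± 0.32, adjusted p = 0.0414), and SPTY2D1, a relative of yeast SPT2 (-0.89 ± 0.29, adjusted p = 0.0496). In PRKDC 8 of the 20 were called lower and 0 higher, where 16.1% of all genes were lower and 19.6% higher. In PABPC1 1 was called (5.76% of all genes in either direction), in PARP1 1 (2.98% of all genes lower), and in the first series 0. CHD2 was called in all 4 second-series knockdowns, from -1.06 to -0.74, and CTR9 also in PRKDC (-1.22).

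Of 11 measured NELF and P-TEFb genes, which set or release the pause that DSIF takes part in, 2 were called lower with the SUPT16H hairpins and 0 higher, against 5.76% and 3.77% of all genes. These were HEXIM1, the inhibitor of P-TEFb (-1.30 ± 0.25, adjusted p = 0.00201), and AFF4, the scaffold of the super elongation complex (-0.73 ± 0.22, adjusted p = 0.0362). HEXIM1 was also called in PARP1 (-1.16) and PRKDC (-1.05), and AFF4 in PABPC1 (-0.91) and PRKDC (-0.99). In PRKDC 5 of the 11 were lower and 2 higher, against 16.1% and 19.6% of all genes. In PABPC1 and in PARP1 2 of the 11 were called lower and 0 higher. Over all genes 5.76% were called in either direction in PABPC1, and 2.98% lower and 2.46% higher in PARP1.

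Of 18 other H3-H4 chaperones, 1 was called higher and 2 lower with the SUPT16H hairpins, and 4 higher and 5 lower in PRKDC. Over all genes the shares were 3.77% higher and 5.76% lower with the SUPT16H hairpins and 19.6% and 16.1% in PRKDC, so that the higher counts were near the background. MCM2, a helicase subunit that also holds H3-H4, rose by 0.65 ± 0.15 with the SUPT16H hairpins (adjusted p = 0.0108) and was called higher in 5 of 8 knockdowns, by 0.64 to 0.88. UBN2, a subunit of the HIRA complex, fell by 0.79 and HAT1, which acetylates new H4, fell by 0.98 with the SUPT16H hairpins. UBN2 was also called lower in PABPC1 (-0.72) and PRKDC (-1.11), and HAT1 in PRKDC (-1.41). Of 18 other H2A-H2B and acidic chaperones, 2 were called higher and 1 lower with the SUPT16H hairpins, beside the same shares. The lower one was TSPYL2, a NAP1-related protein, called in 6 of 8 knockdowns at -1.06 to -0.85. NAP1L3, a relative of NAP1L1, was called higher in all 4 second-series knockdowns, by 0.62 to 0.90. The H2A-H2B and acidic list also had 2 higher and 1 lower in PABPC1, PARP1 and DDX17, and 5 higher and 3 lower in PRKDC. Over all genes 5.76% were called in either direction in PABPC1 and 2.77% in DDX17, and 2.46% higher and 2.98% lower in PARP1. Against the other knockdowns 0 genes of these 4 lists passed.

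The list calls also changed with 1 lacZ array left. Of the 16 genes named in the 6 lists with the SUPT16H hairpins, cycle genes included, 15 lost their call without lacZ replicate 2 (HEXIM1 kept it) and 10 without lacZ replicate 3.

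Most cycle genes did not pass with the SUPT16H hairpins, where 5.76% of all genes were called lower and 3.77% higher. Of 33 measured S phase genes, 2 were called lower with the SUPT16H hairpins (DTL at -1.21 and CCNE2 at -1.16) and 0 higher, and in PRKDC 6 lower and 3 higher, with list medians of -0.24 and -0.32. The lower counts of both were near the shares over all genes, which in PRKDC were 16.1% lower and 19.6% higher. DTL was called lower in all 4 second-series knockdowns, from -1.52 to -1.21, and CCNE2 also in PRKDC (-1.64). Of 28 G2 and M phase genes, 1 was called lower with the SUPT16H hairpins (MKI67 at -0.66) and 2 higher (UBE2C at 0.72 and BIRC5 at 0.54), with a list median of 0.08 beside 0.07 over all genes, and in PRKDC 7 lower and 1 higher with a median of -0.36. MKI67, the Ki-67 gene, was called lower in 7 of 8 knockdowns, from -1.70 to -0.66. The part of the cell cycle in the ASF1B and SUPT5H differences was not tested. Against the other knockdowns the only call in these 2 lists was LIG1 in DDX17, at -0.56 (adjusted p = 0.0489), and against PABPC1 the SUPT16H hairpins had PTTG1, the securin gene, higher by 0.81 (adjusted p = 0.0244).

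The genes whose levels most resembled those of the 10 over the arrays were found by Pearson r of log2 levels centred within series, over 27 arrays counted once (24 for SUPT16H, without its own hairpins). SUPT16H was most like FRYL (0.93), ATRNL1 (0.92) and WASHC4 (0.92), and SSRP1 most like CCT7 (0.89). SUPT5H was most like CDK11B (0.90), TAOK2 (0.84) and CDK11A (0.83), and SUPT6H most like ARFGEF2 (0.96) and DNMT1 (0.94). ASF1B was most like OGDH (0.91) and MTOR (0.89), and ASF1A most like ZW10 (0.92). SUPT4H1 was most like PSMB4 (0.85), CHAF1A most like MLXIP (0.79), CHAF1B most like CEP78 (0.90) and NAP1L1 most like TMEM230 (0.90).

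Among the 10 themselves, SSRP1 and SUPT6H had an r of 0.75 (rho 0.60), SUPT5H and ASF1B 0.63 (rho 0.51), SUPT16H and SSRP1 0.50 (rho 0.30) and ASF1A and ASF1B 0.29 (rho 0.21). Within the first and the second series the values were 0.93 and 0.39 for SSRP1 and SUPT6H, 0.44 and 0.78 for SUPT5H and ASF1B, and 0.69 and 0.06 for SUPT16H and SSRP1. For ASF1A and ASF1B they were of opposite sign, -0.25 in the first and 0.69 in the second. The value for the FACT subunits fell to 0.24 without DDX5 hairpin 3, and to 0.18 without the 2 arrays furthest from the median. These are descriptions over arrays that share control, normalization and series, with no test.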

How the data were processed

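The authors extracted total RNA with TRIzol, amplified it with random primers and hybridised it to Affymetrix Human Gene ST1.0 arrays. Per the labels the deposited intensities were made by RMA (background correction, quantile normalization and probe summary), which brings the arrays of a series to a common distribution. The values are on a linear scale, from 4.25 to 18486. Number of arrays and their noise limit the precision. The scans were not analysed here.

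Of 33252 probesets in 28 arrays, 19460 had exactly 1 gene symbol, 1754 several and 12038 none. For the 769 genes with several probesets the one with the highest mean was taken, which gave 18417 genes (18389 matched by Entrez ID). The log2 values had no pseudocount and no filter on low levels. One limma 3.58.1 model in R 4.3.3 with a mean per group and a term for the series was fitted to all arrays, with an intensity trend in the moderated variances (17 residual and 8 prior degrees of freedom). Knockdowns with 3 hairpins (8) were compared with lacZ within a series, and with the other 3 such knockdowns, SUPT16H also against each of these, and the knockdowns of a series were pooled against lacZ. Tests were two-sided, with Benjamini-Hochberg adjustment over all genes of a comparison and calls under 0.05. A ± is a standard error.

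The members and the 6 wider lists were chosen with earlier results of these data known. All members are named. Of a wider list at most 3 genes per comparison are named, those of smallest adjusted p, called, and with 1 sign in all 3 hairpins. Likeness is given by the 3 genes of highest r, of which the text prints at least the first. The calling was tested on simulated data. Alternatives were the series fitted alone, other normalizations, a pseudocount of 16, a filter at a mean log2 of 5, no trend, the mean of probesets, both lacZ arrays as control for every knockdown, a hairpin-number block, and each array left out. Figures were drawn with Python 3.11.15 and matplotlib 3.10.9.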

Additional observations from a re-analysis of the deposited data

Results flagged for a closer look

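Differences between knockdowns that passed a test of the difference itself were few among the 10 genes. SUPT16H with its own hairpins lay below the other 3 knockdowns of its series (-1.70, adjusted p = 4.09e-07), below PABPC1 (-1.77), below PARP1 (-1.83) and below PRKDC (-1.52). It was the target of those hairpins, which had been selected for its depletion. SUPT16H in PARP1 lay above the other 3 knockdowns by 0.73, of which the SUPT16H hairpins are one. ASF1A in PRKDC lay below PABPC1 and PARP1 (-1.01, adjusted p = 0.0331), in a comparison that was added after the data were seen.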

How the results depend on the processing

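Of 15 called values, 5 kept their call under all alternatives run, all of them SUPT16H with its own hairpins, 10 lost it under some, and 0 changed sign. With both lacZ arrays as control for every knockdown, more genes were called against lacZ over the whole array in the first series. The counts went from 176 to 689 in CLP1, from 511 to 1565 in DDX17 and from 155 to 512 in DDX5. Among the 10 genes the 7 values called lower against lacZ became 11 there. SUPT5H was then also called in CLP1 (-0.84), DDX17 (-0.73) and DDX5 (-0.81), and ASF1B in DDX17 (-0.94). The 7 values became 2 with quantile normalization over all arrays. Leaving out 1 array gave 0 to 9, with 3 without lacZ replicate 2 and 0 without lacZ replicate 3. The first-series lacZ array could not be left out, being the only control there. Against the other knockdowns the 1 higher call became 4 with each series fitted alone, 4 with quantile normalization, 0 with the SUPT16H hairpins left out of the reference (added after seeing the data), and 0 to 4 with 1 array left out. The 0 lower calls there became 2, 1, 1 and 0 to 2 under the same changes. The higher calls gained in the series fitted alone and with quantile normalization were SUPT16H in PABPC1 and PRKDC, and ASF1A in PABPC1. Over all genes, the calls in PABPC1 against the other knockdowns went from 16 to 75 and 169 in these settings. For SUPT16H the reference holds the SUPT16H hairpins, in which the gene was the target. For the SUPT16H hairpins against each other knockdown the 0 lower calls became 1 with each series fitted alone, 1 with quantile normalization (ASF1A against PABPC1 in both) and 0 to 1 with 1 array left out. For the pooled knockdowns the 2 lower calls became 0 with quantile normalization, 4 with both lacZ arrays as control, and 0 to 2 with 1 array left out. Of the 94 values named from the wider lists, 9 kept their call under all alternatives, and 63 lost it without lacZ replicate 2. TSPYL1 with the SUPT16H hairpins, 0.55 against lacZ, changed sign to -0.0514 with the mean of all its probesets. The cause of these changes was not tested.

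The number of genes called over the whole array also moved. Against lacZ, 1756 genes were called with the SUPT16H hairpins in the common fit, 4338 with the second series fitted alone, and 178 without lacZ replicate 2. Without DDX5 hairpin 3, an array of the first series, 3976 genes were called with the SUPT16H hairpins against lacZ. With arrays centred on their medians, the share of calls that were higher went from 43.8% to 60.5% in DDX17 against lacZ. Against the other knockdowns it went from 50.3% to 76.9% in DDX17, from 66.9% to 32.1% in CLP1 and from 90.2% to 69.8% in PARP1.

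The hairpin numbers do not pair the arrays. Deviations from group means of arrays with the same number had a mean r of 0.02 over 36 pairs, 15 of them over 0.1. Arrays with different numbers had a mean r of -0.0043 over 72 pairs, 28 of them over 0.1. Of 24 arrays, 9 correlated best with their own number. With the replicate block by hairpin number, which could be fitted only without lacZ, 1 value was called higher against the other knockdowns and 0 lower, and 0 in the SUPT16H hairpins against each other knockdown, as without the block.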
